A study of Mus musculus with 6 samples.

Results

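The mitosis genes were a set of 43 genes that act in the division of a cell, chosen by name. Each was a row of the deposited gene count table whose symbol equalled a listed member, and all 43 were found among the 45583 rows and passed the filter on low counts that left 13741 genes to test. RNA had been sequenced from the cerebral cortex of 6 male fetal mice at GD15.5 (gestational day), 1 library a fetus. All 6 came from the Cyp19-EGFP strain and are labelled wild type and positive for Sry, the male-determining gene. In that strain an added copy of Cyp19a1, which encodes aromatase, carries a green fluorescent protein gene. Dams had received BPA (bisphenol A, a plastic monomer with estrogenic activity) at 50 µg/kg by subcutaneous injection over GD10.5 to GD14.5 in 1 group of 3 fetuses, and peanut oil as vehicle in the other group of 3. The labels do not give litters, so p-values measure the spread between these fetuses. That age also stands in the study's methods, whereas its results section names a later one.

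In the fetal cortex, cells divide mainly in the zones at and near the ventricle. There radial glia and the intermediate progenitors they produce pass through mitosis, while neurons have left the cell cycle. Entry into mitosis is driven by CDK1 bound to a cyclin, the spindle is built by motors and microtubule-binding proteins, and the kinetochore and its checkpoint hold back chromosome separation until the anaphase-promoting complex releases it. Transcripts of these genes peak late in the cell cycle and are widely used as markers of dividing cells. The comparison asked whether their levels in the cortex of BPA-exposed fetuses differed from those after vehicle. In such tissue, fewer dividing cells and less RNA per dividing cell cannot be told apart.

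Genes of this class are known to share promoter elements, so the sequences around the start site are shown for 7 of the members. The CHR element (cell cycle genes homology region, the site of the MuvB complex) was searched as TTTGAA or TTCGAA and the CCAAT box (the site of NF-Y) as CCAAT, both on either strand, in RefSeq promoter windows of build GRCm38.p6 that reach from 250 bases before the start to 50 after it. TTCGAA is its own reverse complement and was counted once, and CCAAT matches on opposite strands can overlap each other. Each stretch below runs 5′ to 3′ on the gene's strand from 120 bases before the start to 20 bases after it, with both kinds of match in capitals. On the opposite strand the matches read TTCAAA and ATTGG. The stretches lie at chr10:69352893-69353032, minus strand (Cdk1), at chr13:100786467-100786606, minus strand (Ccnb1), at chr9:70421535-70421674, minus strand (Ccnb2), at chr4:118437324-118437463, minus strand (Cdc20), at chr2:164769809-164769948, plus strand (Ube2c), at chr1:139454653-139454792, plus strand (Aspm), and at chr11:99024170-99024309, minus strand (Top2a).
Cdk1: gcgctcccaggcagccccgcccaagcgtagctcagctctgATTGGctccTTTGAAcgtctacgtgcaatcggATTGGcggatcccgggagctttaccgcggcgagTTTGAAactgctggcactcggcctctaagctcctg
Ccnb1: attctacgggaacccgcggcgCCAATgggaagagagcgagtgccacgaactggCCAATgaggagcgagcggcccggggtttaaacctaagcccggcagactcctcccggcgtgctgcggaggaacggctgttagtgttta
Ccnb2: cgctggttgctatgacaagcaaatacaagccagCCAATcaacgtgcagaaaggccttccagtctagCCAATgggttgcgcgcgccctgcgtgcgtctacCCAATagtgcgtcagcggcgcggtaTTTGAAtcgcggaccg
Cdc20: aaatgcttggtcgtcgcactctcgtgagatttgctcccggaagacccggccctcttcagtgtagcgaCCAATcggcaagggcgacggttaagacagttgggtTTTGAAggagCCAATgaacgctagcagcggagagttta
Ube2c: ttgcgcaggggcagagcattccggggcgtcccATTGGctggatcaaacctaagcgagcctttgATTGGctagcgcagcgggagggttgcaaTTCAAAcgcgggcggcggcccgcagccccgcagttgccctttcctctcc
Aspm: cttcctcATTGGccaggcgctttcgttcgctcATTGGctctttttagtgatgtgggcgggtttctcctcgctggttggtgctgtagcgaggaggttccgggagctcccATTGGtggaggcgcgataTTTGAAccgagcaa
Top2a: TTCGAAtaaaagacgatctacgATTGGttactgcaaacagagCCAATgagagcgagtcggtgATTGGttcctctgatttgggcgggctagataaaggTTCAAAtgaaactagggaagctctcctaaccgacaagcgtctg

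Cdk1 held a CHR element 71 bases and another 15 bases before its start, and Top2a held its nearest at 23 bases before. The element lay 18 bases before the start in Cdc20, 29 before in Ube2c, 4 after in Ccnb2 and 6 after in Aspm. Ccnb1, in contrast, had CCAAT boxes at 99 and 67 bases before its start and no TTTGAA or TTCGAA match in its window. Other forms of the CHR element were not searched. Of the 43 members, 35 had a promoter window in the table. A CHR match was present in 29 of those 35 genes (82.9%), against 1491 of the 9644 tested genes with a window and 21.7% of all 27025 genes with one. A CCAAT box was present in 77.1% of the 35, against 42.9% of the tested genes and 41.1% of all genes. The pair occurred in 71.4% of the 35, 6.49% of the tested genes and 8.61% of all. The 6 genes without a CHR match were Ccnb1, Birc5, Mad2l1, Cenpe, Nuf2 and Nusap1. Windows were lacking for Ccna2, Cdc25c, Pbk, Aurkb, Incenp, Tpx2, Smc4 and Kif20a.

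Most matches of the members lay close to the start site. In the 50 bases after the start, a CHR match was found in 56.8% of the 37 windows of the members (some genes have more than 1) and in 1.73% of the 12455 windows of tested genes. In the 50 bases before the start the shares were 21.6% and 1.8%. CCAAT boxes lay further upstream, in 48.6% of the members' windows between 100 and 50 bases before the start and in 51.4% over the last 50 bases, against 14.8% and 10.7% of the windows of tested genes. These shares describe letters in the windows. Binding of any factor was not measured here.

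**Figure D1:**
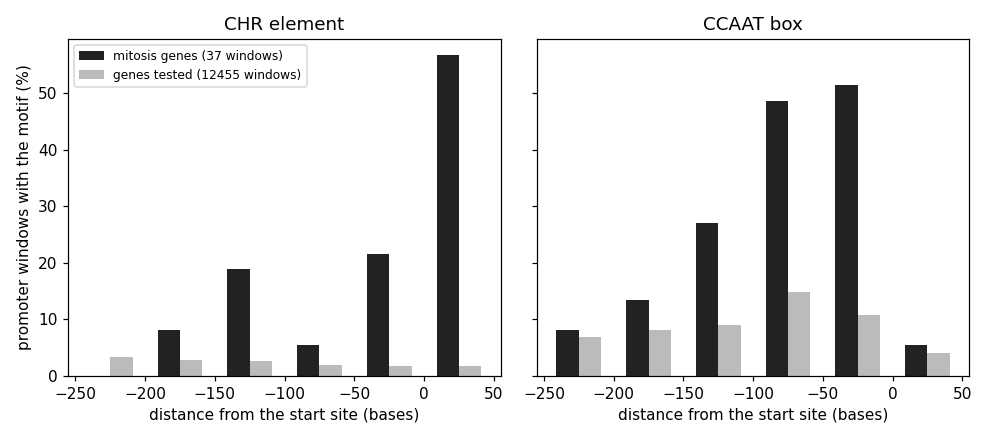
Share of promoter windows (%) that hold a CHR element (left) or a CCAAT box (right) in each 50-base bin, by distance from the start site in bases, for the 37 windows of the mitosis genes (black) and the 12455 windows of all tested genes (grey). The CHR share of the mitosis genes is highest in the bin after the start (56.8% against 1.73%), and their CCAAT shares are highest in the 2 bins before it.

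All 43 members were transcribed in every library, with 20 to 1979 counts a library and 26 of them at 100 counts or more in each. Values are CPM, read counts scaled to library size and adjusted between libraries with TMM (trimmed mean of M-values) factors. Levels of different genes are compared only as CPM per kilobase of exon. Exon length counts every base in any annotated exon of a gene, which can exceed the length of its main transcript. The ranking depends on that choice. On the per-kilobase scale the highest mean levels over the 6 libraries were those of Top2a at 26.8, which untangles sister DNA, Cdc20 at 26.3, the activator of the anaphase-promoting complex, and Ccna2 at 26.2, which encodes cyclin A2. These 3 levels differed by less than the spread over libraries (SD 3.51 for Top2a and 3.29 for Ccna2, n = 6). Ube2c at 24.4, the ubiquitin-conjugating enzyme that works with that complex, Tpx2 at 24.0, the activator of Aurora A on the spindle, and Mki67 at 22, which encodes the proliferation marker Ki-67, came next. Ccnb2, a B-type cyclin, stood at 20.6 CPM per kilobase, whereas Ccnb1, the other B-type cyclin measured, stood at 4.22. Their exon lengths were 1.53 kilobases for Ccnb2 and 4.22 kilobases for Ccnb1, and the part of length in that contrast was not tested. The lowest levels were those of Hmmr, a spindle-associated microtubule binder, at 1.84 and of Ndc80, the outer kinetochore subunit that grips microtubules, at 1.47 CPM per kilobase.

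**Figure D2:**
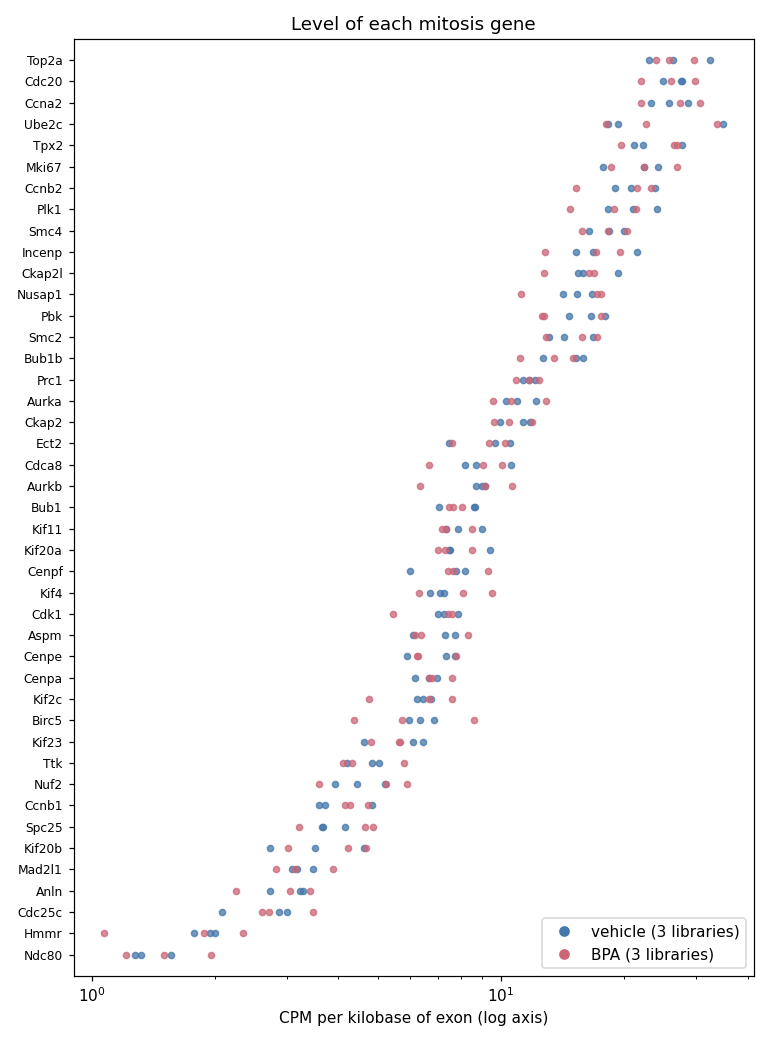
Level of each of the 43 mitosis genes in CPM per kilobase of exon (log axis), 1 point a library, vehicle in blue and BPA in red, ordered by mean level. Levels run from 1.47 (Ndc80) to 26.8 (Top2a) as means over 6 libraries, and the vehicle and BPA points of every gene overlap.

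None of the 43 mitosis genes passed the comparison of BPA with vehicle in edgeR's quasi-likelihood test with Benjamini-Hochberg adjustment at a threshold of 0.1, as none of the 13741 genes did (0%). No member was under an unadjusted p of 0.05, where 2.2% of all tested genes were, and no member had groups that did not overlap, which 6.75% of all tested genes had. DESeq2 called 3 genes in all and edgeR's exact test 2, none of them a member, and limma-voom called none. The fitted level was higher after BPA for 18 members and lower for 25. The median log2 fold change (BPA over vehicle) was -0.0070, beside 0.0016 for all tested genes, of which 49.5% were lower. Fold changes ran from 0.876 for Plk1 to 1.147 for Kif4, and 34 of the 43 were within 1.1-fold either way.

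The intervals show how large a difference these 6 libraries could have missed. The 95% interval of the fold lay inside 1.5-fold either way for 42 of the 43 members and inside 1.3-fold for 21. The exception to the first was Ndc80, with a log2 fold change of 0.19 and an interval of -0.25 to 0.64. The widest interval was that of Hmmr, from -0.55 to 0.43, which stayed inside 1.5-fold. Interval half-widths ran from 0.216 to 0.489 on the log2 scale, with a median of 0.302. Differences of a few percent were thus not detectable at this replication.

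**Figure D3:**
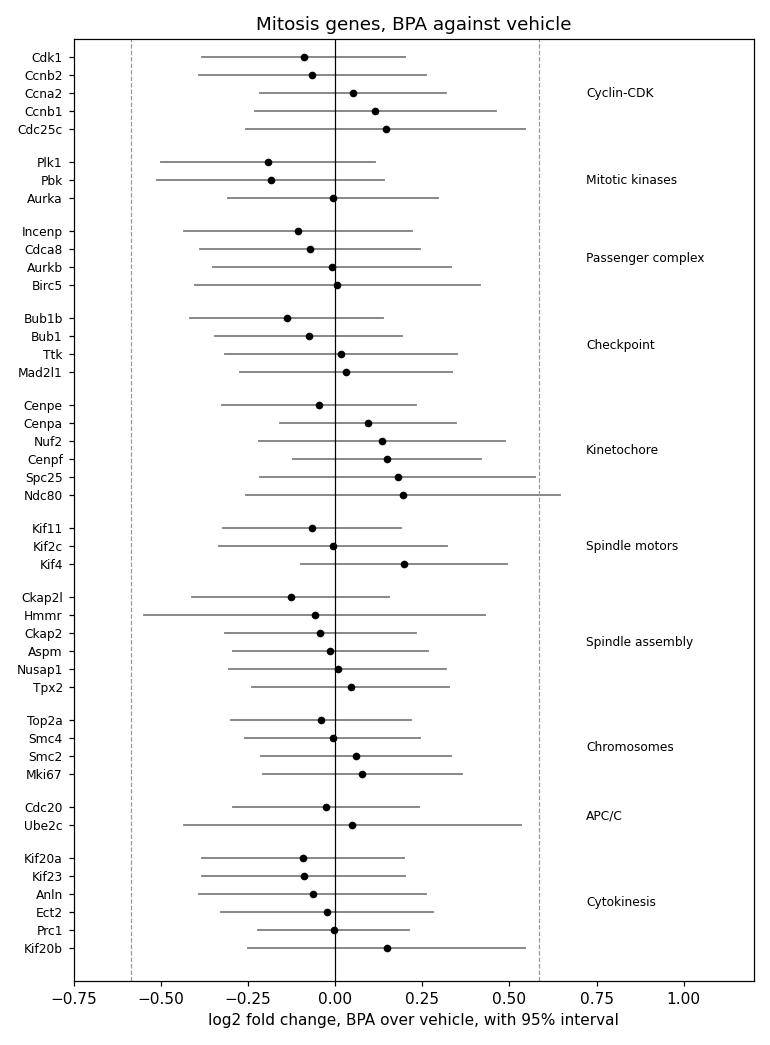
Log2 fold change of each mitosis gene, BPA over vehicle (3 libraries each), with its 95% interval from edgeR's quasi-likelihood fit, grouped by role, and dashed lines at 1.5-fold either way. Every interval spans 0, and 42 of 43 lie inside the dashed lines, Ndc80 reaching past them.

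Among the regulators of entry, 3 of 5 were higher and 2 lower after BPA (median log2 fold change 0.05). Cdk1, the kinase that starts mitosis, stood at 35.7, 34.6 and 38.7 CPM in vehicle libraries 1 to 3 and at 36.6, 37.4 and 26.8 CPM in the BPA libraries. Only BPA 3 lay apart, below every other library, and the groups overlapped (log2 fold change -0.09, SE 0.137). Ccnb1, its cyclin B1 partner, was measured at 20.4, 15.6 and 15.2 CPM after vehicle and at 19.9, 18.0 and 17.5 CPM after BPA. Here vehicle 1 was the highest library, and the difference was 0.12 (SE 0.162, interval -0.23 to 0.46). Ccna2 gave 105, 117 and 94.7 CPM after vehicle against 111, 125 and 89.9 CPM after BPA, a log2 fold change of 0.05 (SE 0.125). Cdc25c, a phosphatase that activates CDK1, gave 14.1, 14.8 and 10.3 CPM against 17.1, 13.3 and 12.8 CPM, or 0.15 (SE 0.188). BPA 1 was its highest library and vehicle 3 its lowest.

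The mitotic kinases Plk1, Pbk and Aurka were all fitted lower after BPA, and none passed the test. Plk1, a kinase that acts from entry to cytokinesis and lies at chr7:122159439-122169873 (GRCm38), stood at 46.2, 52.9 and 40.2 CPM after vehicle and at 47.0, 41.6 and 32.4 CPM after BPA. BPA 1 was above vehicle 1 and vehicle 3, so the groups overlapped. Its log2 fold change, -0.19 (SE 0.144, interval -0.50 to 0.12, unadjusted p = 0.204, adjusted p = 0.9998 by edgeR's quasi-likelihood test), was the most negative of the 43. It lay between -0.32 without BPA 1 and -0.07 without BPA 3. Pbk, a kinase of dividing cells, was fitted at -0.18 (SE 0.154), and Aurka, which matures the spindle poles, at -0.01 (SE 0.142).

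The chromosomal passenger complex places Aurora B on the inner centromere, and later on the spindle midzone. Incenp, its scaffold, gave 72.7, 93.2 and 65.9 CPM after vehicle and 84.6, 73.8 and 55.4 CPM after BPA. Vehicle 2 was the highest library and BPA 3 the lowest (log2 fold change -0.11, SE 0.154). The other members of the complex were fitted at -0.07 for Cdca8, -0.01 for Aurkb, the kinase itself, and 0.01 for Birc5, which encodes survivin.

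Of 4 spindle checkpoint genes, 2 were fitted higher and 2 lower. Bub1b, which encodes the checkpoint protein BUBR1, stood at 65.3, 67.7 and 54.0 CPM after vehicle and at 63.9, 57.5 and 47.6 CPM after BPA. Vehicle 3 lay among the BPA libraries, and the difference of -0.14 (SE 0.130, interval -0.42 to 0.14) did not pass the test. Bub1, a checkpoint kinase, was fitted at -0.07, Ttk, the kinase that starts the checkpoint, at 0.02, and Mad2l1, its diffusible inhibitor of anaphase, at 0.03.

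The kinetochore genes were fitted higher in 5 of 6 cases, with a median log2 fold change of 0.14, and no member of the group passed the test. Cenpf, a large protein of the outer kinetochore, gave 126, 119.8 and 92.7 CPM after vehicle and 144, 115 and 118 CPM after BPA. BPA 1 was the highest library and vehicle 3 the lowest, while the other 4 lay within the range from 115 to 126 CPM (log2 fold change 0.15, SE 0.127, interval -0.12 to 0.42). Cenpe, a kinetochore motor, was the exception at -0.05. Cenpa, the centromeric histone, was fitted at 0.09, and Nuf2, Spc25 and Ndc80, subunits of 1 microtubule-binding complex, at 0.14, 0.18 and 0.19. Without BPA 3, the remaining libraries of Nuf2 and Spc25 did not overlap between groups, nor did those of Aurkb, Kif4 and Nusap1. These 5 of 43 stand beside 2091 of 14037 genes over the whole table in the same setting, so such separation was no more frequent among the members.

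Kif4, a chromosome-bound kinesin that lies at chrX:100625737-100727214, had the largest positive difference. It stood at 39.1, 40.0 and 36.9 CPM after vehicle and at 52.3, 44.5 and 34.7 CPM after BPA. BPA 1 and BPA 2 lay above every vehicle library and BPA 3 below all of them. The log2 fold change was 0.20 (SE 0.139, interval -0.10 to 0.49, unadjusted p = 0.175, adjusted p = 0.9998 by edgeR's quasi-likelihood test). It came to 0.05 without BPA 1 and to 0.32 without BPA 3, the latter with an adjusted p = 0.999 (unadjusted p = 0.0291) by edgeR's quasi-likelihood test. Kif11, the motor that pushes the spindle poles apart, gave 66.9, 54.6 and 58.6 CPM against 63.4, 54.6 and 53.4 CPM, a difference of -0.07 (SE 0.120). Kif2c, which depolymerizes microtubules at centromeres, was fitted at -0.01.

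Spindle assembly factors were fitted higher in 2 cases and lower in 4. Tpx2 gave 104, 129 and 98.8 CPM after vehicle and 123, 126 and 91.9 CPM after BPA (log2 fold change 0.04, SE 0.133). Ckap2l, a spindle protein of neural progenitors, gave 49.9, 60.5 and 48.3 CPM against 52.9, 51.4 and 40.0 CPM (-0.13, SE 0.133). Aspm, a spindle-pole protein whose loss causes microcephaly, gave 89.3, 84.5 and 70.8 CPM against 96.3, 73.9 and 71.5 CPM. For Aspm the BPA libraries held the highest value of the 6, vehicle 3 held the lowest, and the difference was -0.01 (SE 0.132, interval -0.29 to 0.27). Ckap2, Nusap1 and Hmmr, all microtubule binders, were fitted at -0.04, 0.01 and -0.06.

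The genes of chromosome structure were fitted higher in 2 cases and lower in 2. Mki67 gave 225, 243 and 179 CPM after vehicle (216 ± 33.4, SD, n = 3) and 271, 224 and 187 CPM after BPA (227 ± 42.2, SD, n = 3). Top2a gave 291, 237 and 208 CPM (245 ± 42.4) and 266, 232 and 216 CPM (238 ± 25.8). In both genes the third library of each group was its lowest, and the spread within groups was several times the difference between their means. The log2 fold changes were 0.08 for Mki67 (SE 0.134, interval -0.21 to 0.36) and -0.04 for Top2a (SE 0.122, interval -0.30 to 0.22). The condensin subunits Smc2 and Smc4, which compact chromosomes, were fitted at 0.06 and -0.01.

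Exit from mitosis and cytokinesis gave the same picture with an exception in Ube2c. Cdc20 gave 51.6, 46.5 and 51.3 CPM after vehicle and 48.7, 55.6 and 41.1 CPM after BPA (-0.03, SE 0.126). Of the 6 cytokinesis genes, 5 were fitted lower. Prc1, the crosslinker of midzone microtubules, varied least of all 43, with 99.6, 96.2 and 92.9 CPM against 96.1, 102 and 89.6 CPM and a difference that rounds to 0 (SE 0.102, interval -0.22 to 0.21). Kif20b, a midbody kinesin, gave 24.4, 32.1 and 18.9 CPM against 32.5, 29.4 and 21 CPM and was the member fitted higher, at 0.15 (SE 0.187). The remaining 4, Ect2, Anln, Kif23 and Kif20a, which organize the cleavage furrow and midzone, lay between -0.09 and -0.02.

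Ube2c, at chr2:164769898-164778822, followed its own pattern among the libraries. It stood at 50.2, 90.4 and 47.3 CPM after vehicle and at 58.9, 87.4 and 47.0 CPM after BPA. Vehicle 2 and BPA 2 were thus far above the other 4 libraries, and the groups overlapped, with a difference of 0.05 (SE 0.228, interval -0.43 to 0.53). Those same libraries held the most choroid plexus marker RNA. The 7 markers of that tissue summed to 229 CPM in vehicle 2 and 365 CPM in BPA 2, and to between 12 and 19.6 CPM in the other 4 libraries. Of the 7, Folr1 was at 0 counts in vehicle 3 and Aqp1 in BPA 3, while Ttr, the most abundant, had 15 to 76 counts in those 4 libraries. Their part in the Ube2c level was not tested. The exons of Ube2c overlap those of Tnnc2 on the opposite strand, a gene at 0 counts in every library. The difference for Ube2c depended on these libraries. It was 0.42 without vehicle 2 (unadjusted p = 0.0432, adjusted p = 0.949 by edgeR's quasi-likelihood test), -0.24 without BPA 2 and 0.14 without either.

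Libraries differed from each other more than the groups did. As the log2 deviation from each gene's mean over the 6 libraries, the median over the 43 members was 0.05 in vehicle 1, 0.10 in vehicle 2 and -0.12 in vehicle 3. It was 0.15 in BPA 1, 0.07 in BPA 2 and -0.25 in BPA 3. In each group, then, 2 libraries lay above the mean and the third below it, and the lowest and the highest medians were both in the BPA group. No member was above its own mean in BPA 3 and 5 of 43 were in vehicle 3, against 30 to 36 in the other 4 libraries. Of the 13741 tested genes, 6893 were above their own mean in BPA 3 and 6986 in vehicle 3. BPA 3 held the lowest value for 29 of the 43 members, whereas it did so for 2684 of the 13741 tested genes. BPA 1 held the highest value for 17 of the members and for 2203 of the 13741 tested genes. The members' summed level was 2506, 2559 and 2131 CPM after vehicle and 2646, 2493 and 2028 CPM after BPA, or 0.24% of all counts in both groups.

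**Figure D4:**
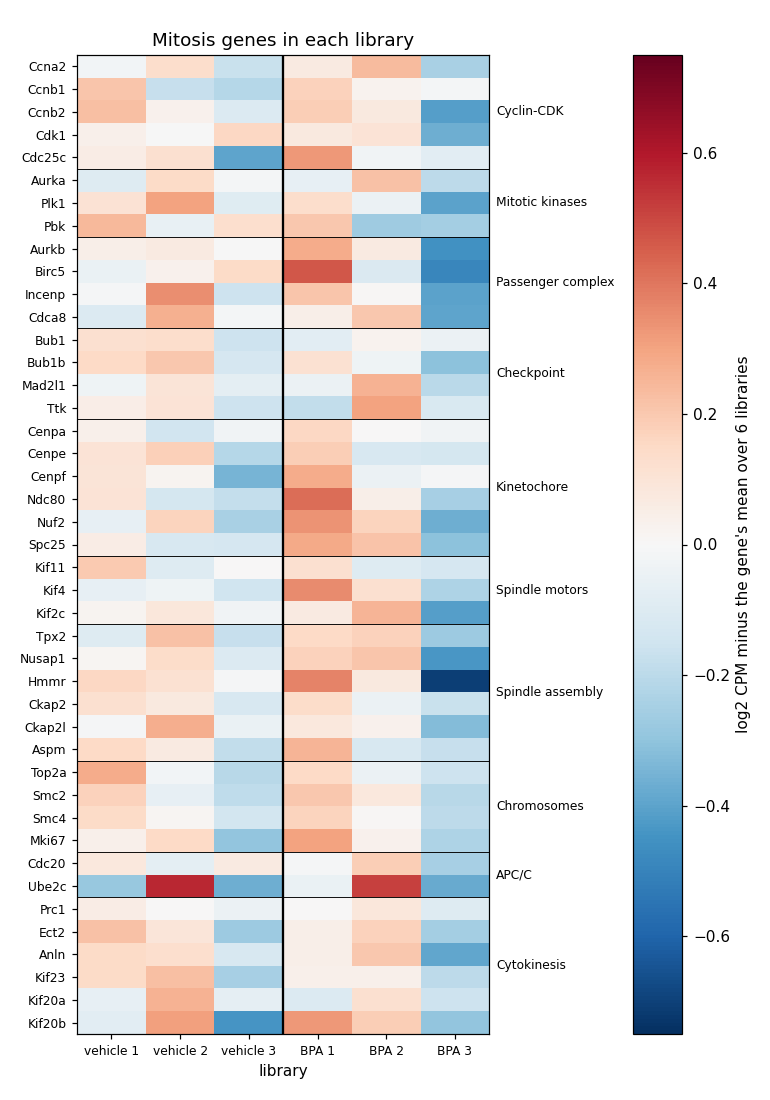
Heatmap of log2 CPM minus the gene's mean over the 6 libraries (colour scale) for the 43 mitosis genes (rows, by role) in each library (columns). Vehicle 3 and BPA 3 are mostly blue (low), BPA 1 is mostly red (high), and Ube2c alone is strongly red in vehicle 2 and BPA 2.

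BPA 3 and vehicle 3 were also the least sequenced libraries, with total counts of 3444601 and 5030652 against 6091954 to 7180835 in the others. The part of depth in the low values was not tested. The widest ranges over libraries were those of Hmmr at 1.08, Birc5 at 0.96 and Ube2c at 0.94 on the log2 scale, and the narrowest was 0.18 for Prc1. For Hmmr and Birc5 the highest library was BPA 1 and the lowest BPA 3, and Hmmr had only 20 counts in BPA 3. The median range was 0.51 over the members and 0.46 over all tested genes. The split of the members between higher and lower depended on which libraries were compared. Without BPA 3, 35 members were higher and 8 lower after BPA, and without vehicle 3 the split was 9 to 34. Leaving out vehicle 2 gave 28 to 15, leaving out BPA 1 gave 11 to 32 and leaving out BPA 2 gave 14 to 29. With library size alone as scaling the split was 21 to 22.

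The marker lists show where the low libraries stood for other cells. The median deviation of 13 radial glia markers was 0.03, 0.18 and -0.03 after vehicle and 0.05, 0.03 and -0.19 after BPA. BPA 3 was thus lowest for this list too. For 8 intermediate progenitor markers, the median was -0.29, 0.23 and -0.07 against 0.12, 0.14 and -0.14. Their minimum was in vehicle 1. The median over the 12 neuron markers was within 0.07 of 0 in every library, and they summed to between 10540 and 11133 CPM. Between groups, the radial glia median log2 fold change was -0.0025, and no radial glia, intermediate progenitor or neuron marker was under an unadjusted p of 0.05. All 10 genes listed as ventral progenitor markers, of the neighbouring subpallium, were fitted lower after BPA, with a median of -0.43. The list is not limited to dividing cells, as it includes Lhx6 and Lhx8. Its genes summed to 789 to 904 CPM after vehicle and to 624 to 747 CPM after BPA. None of them passed the adjusted threshold, and 7 were under an unadjusted p of 0.05. Of all tested genes, 2.2% were under that p and 49.5% were fitted lower. This list was chosen with earlier results of these data known. The part of its genes in the members' values was not tested. Markers of blood, vessels, microglia and meninges summed to at most 599, 180, 62.7 and 118 CPM in any library.

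**Figure D5:**
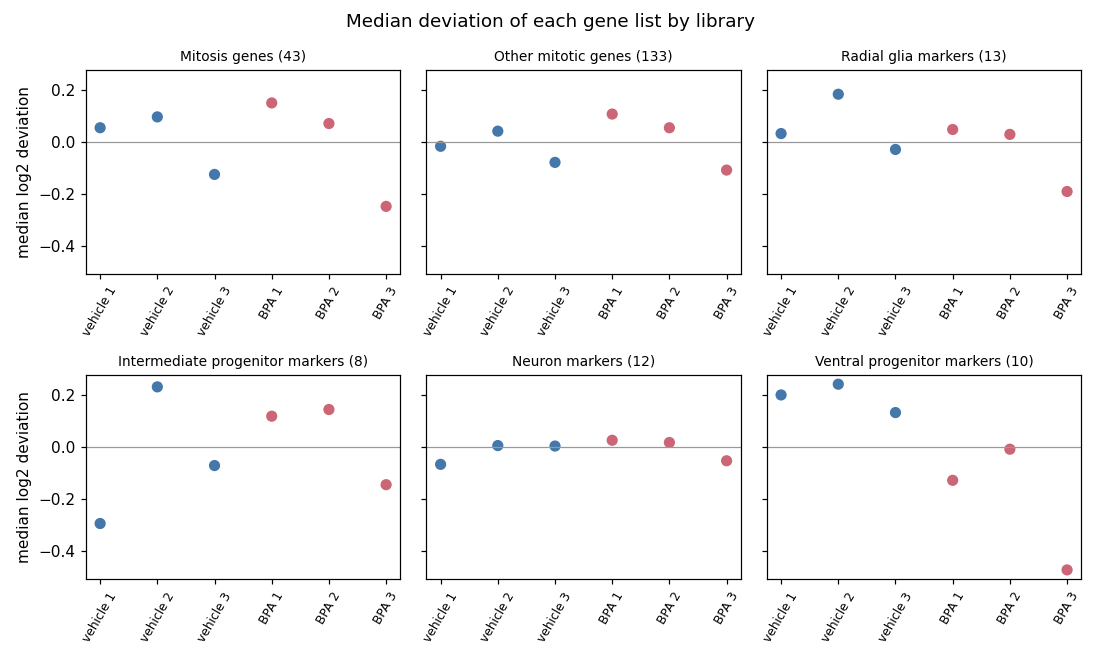
Median log2 deviation from each gene's mean over the 6 libraries, 1 point a library (vehicle blue, BPA red), for the 43 mitosis genes, 133 other mitotic genes and 4 marker lists. The mitosis genes, the other mitotic genes and the radial glia markers are lowest in BPA 3 (-0.25, -0.11 and -0.19), while the ventral progenitor markers are lower in all 3 BPA libraries than in all 3 vehicle libraries.

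A wider list of mitotic genes outside the 43 gave 133 tested genes, of which 79 were fitted higher and 54 lower after BPA (median log2 fold change 0.03). None passed the adjusted threshold in edgeR's quasi-likelihood test, 2 were under an unadjusted p of 0.05 (2.2% of all tested genes were) and 9 had groups that did not overlap, 7 above and 2 below (6.75% of all tested genes had such groups). Neither count stands out from all tested genes. Cenpu, an inner kinetochore gene, gave 3.53, 5.63 and 3.94 CPM after vehicle and 8.17, 6.01 and 6.13 CPM after BPA, so every BPA library was above every vehicle library (0.63, SE 0.260, unadjusted p = 0.0274, adjusted p = 0.9998 by edgeR). Plk4, the kinase of centriole duplication, gave 2.94, 3.94 and 1.38 CPM after vehicle and 1.41, 1.14 and 1.75 CPM after BPA. Vehicle 3 lay among the BPA libraries (-1.03, SE 0.416, unadjusted p = 0.0253, adjusted p = 0.9998 by edgeR). Plk4 rested on 6 to 28 counts a library and Cenpu on 20 to 52. In the promoters of this list a CHR element was found in 45% of the 120 genes with a window, between the share of the 43 members and that of all tested genes.

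Some values are less certain because reads of 50 bases can fit more than 1 gene. Each transcript was cut into all its words of 50 bases, and 8 of the 43 members shared 10% or more of these words with another gene while 12 shared none. The share was highest for Kif20a at 25.2%, which overlaps Cdc23 on the opposite strand, and for Ccnb1 at 23.4%, of which 18.9% was with its pseudogene Ccnb1-ps. Genes that overlap on the opposite strand shared 14.1% of the words of Ube2c (Tnnc2), 14.2% of those of Kif4 (Pdzd11), 11.4% of those of Cdc25c (Gm3550) and 11.4% of those of Ccna2 (Exosc9). The gene that shared most with Cdc20 was Gm7856, at 10.3%, and with Plk1 it was Plk-ps1, at 6.56% of a total of 10.4%. How the counting treated strand and reads with several alignments is not stated in the sources used here, so the levels of these 8 genes carry that uncertainty.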

How the data were processed

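The 6 libraries were counted per gene by the authors, and the deposited table holds whole-number read counts that are not normalized. According to the study's methods and processing notes, strand-specific libraries gave single-end 50-base reads, which were mapped by TopHat2 2.0.14 to GRCm38, and assigned by featureCounts on GENCODE models, and StringTie 1.2.4 was used to assemble transcripts. Groups came from the labels. Replicates were numbered in accession order. Totals ran from 3444601 to 7180835 counts, so 3 counts, the floor of detection, were 0.422 to 0.875 CPM, counting error only.

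Counts were analysed in R 4.3.3 with edgeR 4.0.16: filterByExpr at a minimum count of 10 and a total of 15, which kept 99.7% of counts, TMM scaling, and the quasi-likelihood test of BPA against vehicle, with no covariate and with Benjamini-Hochberg adjustment over 13741 genes at 0.1. Intervals are 95% intervals from the same fit, and log2 deviations used a prior count of 2. The code was tested on simulated data. Alternatives were DESeq2 1.42.0, voom in limma 3.58.1, the exact test, robust dispersion, other scalings and filters, and omission of each library. Omission of vehicle 2 with BPA 2 was chosen after seeing the choroid plexus markers. Exon lengths came from GENCODE M21 and promoters from RefSeq.

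The members and lists were chosen with earlier results of these data known. Values per library were given for Mki67, Top2a, Cdk1, Ccnb1 and Aspm, and for the members with the smallest p and with the highest level per kilobase in each role. Of the other mitotic genes, those under an unadjusted p of 0.05 were given in full. Hmmr, Birc5 and the members fitted at the ends of a range were named after their values were seen.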

Additional observations from a re-analysis of the deposited data

How the results depend on the processing

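No member passed the adjusted threshold under any of the 16 alternatives, and the members' median log2 fold change stayed within 1 SD of the spread between libraries, from -0.06 to 0.08 when 1 library was left out. The number of members under an unadjusted p of 0.05 was 0 under every alternative tool, scaling and filter. It ran from 0 to 1 when 1 library was left out (Ube2c without vehicle 2, Pbk without BPA 1 and Kif4 without BPA 3). Over all genes, 708 of 13886 were under it without vehicle 2 and 194 of 13884 without BPA 1. The count over all genes without BPA 3 is not given, so Kif4 is not read as a result in that setting. The number of members with groups that did not overlap ran from 0 to 5 when 1 library was left out, where 1711 to 2762 genes of the whole table had such groups, and was 2 with vehicle 2 and BPA 2 both left out (Cdc20 and Kif20a), where 4800 of 13643 genes did. The number of other mitotic genes under an unadjusted p of 0.05, 2 in the fit reported, was 0 with DESeq2. It was also 0 with at least 10 CPM required in 3 libraries, a filter that tests fewer genes. The cause with DESeq2 was not tested. When 1 library was left out, the number ran from 0 to 5, with 5 without BPA 3. The count over all genes changed as well, for instance 708 of 13886 without vehicle 2 and 194 of 14012 without vehicle 3. The 5 without BPA 3 are given without the count over all genes in that setting, so they are not read as a result about this list. The sign changed under at least 1 alternative for 13 of the 19 members given by library, and in none for Bub1b, Ccnb1, Cenpf, Ckap2l, Kif4 and Plk1. Of their 304 alternative values, 10 moved by more than 1 SE. With 3 libraries a group and 20 counts for the least counted member, changes smaller than the intervals given could not be resolved. No paired analysis was made, because replicate numbers follow accession order and the labels state no pairs. The sample titles number the vehicle and BPA libraries of equal replicate number close together. Whether those libraries were processed together is not stated.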
